A study of Mus musculus with 8 samples.

Results

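Glycolysis and hypoxia response genes were followed in 8 mouse RNA-seq libraries, as 37 gene symbols chosen by function: glucose uptake, the glycolytic enzymes, lactate formation and export, pyruvate dehydrogenase kinases, and hypoxia-inducible factor (HIF) with its hydroxylases and targets. The 37 symbols took up 38 of the 55401 gene identifiers counted in every library, because Aldoa is listed under a second identifier (ENSMUSG00000114515.2, chromosome 7, 126800790 to 126809108 in GRCm38) that held only 0 to 14 counts per library. Knockout (KO) mice carried the genotype labelled Jmjd1c B KO, and wild-type (WT) mice served as controls; all were C57BL/6. The deleted gene, Jmjd1c, belongs to the Jumonji family of histone demethylases. From each genotype 2 libraries were made of germinal center B cells, sorted by FACS from the spleen, and 2 of activated B cells, which were spleen cells captured on streptavidin beads through a biotin-coupled pan-B reagent and stimulated in culture. The driver of the knockout, the deleted exons, the stimulus and its duration, and the age of the mice are not stated by the labels. Nothing says whether replicates came from separate animals, so each p-value reflects the spread between the deposited libraries, which may be technical.

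Glycolysis takes up glucose through transporters of the Slc2a family, traps it as glucose 6-phosphate, commits it at phosphofructokinase and converts it to pyruvate in a series of steps that yield ATP. Lactate dehydrogenase turns pyruvate into lactate, which leaves the cell through monocarboxylate transporters, whereas pyruvate dehydrogenase kinases hold pyruvate back from the mitochondria. When oxygen is present, prolyl hydroxylases mark HIF-1α for destruction; when oxygen is scarce the protein persists and switches on most of these genes together with mitophagy, angiogenesis and collagen-modifying genes. Activated B lymphocytes are known to raise glucose uptake and glycolysis, and parts of mouse germinal centers are known to be poor in oxygen. Only transcripts were measured here, and neither oxygen nor HIF-1α protein.

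Each library held between 8777425 and 11414559 counts on genes. Levels are in CPM, counts scaled to library size, on a common scale for all 8 libraries. Replicates lay close together, with biological coefficients of variation of 1.88% to 4.10%. Jmjd1c itself was at 163.3 and 158.3 CPM in KO against 194.1 and 177.8 CPM in WT germinal center B cells, and at 136.1 and 153.4 CPM in KO against 274.2 and 282.7 CPM in WT activated B cells. The log2 fold changes by edgeR's quasi-likelihood test with Benjamini-Hochberg adjustment, used throughout, were -0.20 (SE 0.04, adjusted p = 1.66e-05) and -0.94 (SE 0.06, adjusted p = 1.81e-11), so KO transcripts were lower in each cell type but not lost, and the deleted part is not known. The sorted cells carried the markers of their label: 8 germinal center markers summed to 3607 to 3620 CPM (KO) and 5322 to 5447 CPM (WT) in germinal center B cells, against 226.2 to 237.6 CPM in activated B cells. Mitochondrial transcripts took 9.20% to 9.52% of gene counts in KO, against 5.27% to 5.51% in WT germinal center B cells.

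The promoters of these genes are shown for reference, and their part in the values was not tested. The set of RefSeq start sites used here (GRCm38.p6) held 50 for 35 of the 37 symbols, and none for Ndrg1 and Slc2a3. The core letters of the HIF response element, ACGTG or GCGTG on either strand, occurred in the 250 bases before 40 of these 50 starts, compared with 38.6% of windows of the same length over all genes (12679 of 32851). The members were chosen partly as HIF targets, so a share above that of all genes could come from the choice alone. ACGTG also lies within the E-box CACGTG, which occurred in 14.0% of the members' windows and 6.0% of all windows. The members' windows were richer in G and C as well, with a median of 61.0% against 52.4%, and a match describes letters, not binding. Shown are a transporter that was higher in KO germinal center B cells (Slc2a1), an enzyme that was lower there (Gapdh), and 3 members that were far lower in germinal center B cells than in activated ones (Slc16a3, Bnip3, P4ha1). The stretches lie at chr4:119108495-119108710 (Slc2a1, plus strand), chr6:125165774-125166023 (Gapdh, minus), chr11:120948817-120949052 (Slc16a3, plus), chr7:138909520-138909756 (Bnip3, minus) and chr10:59323046-59323295 (P4ha1, plus). Each runs 5′ to 3′ toward the start site, with annotated exon bases left out and the core letters in capitals.
Slc2a1: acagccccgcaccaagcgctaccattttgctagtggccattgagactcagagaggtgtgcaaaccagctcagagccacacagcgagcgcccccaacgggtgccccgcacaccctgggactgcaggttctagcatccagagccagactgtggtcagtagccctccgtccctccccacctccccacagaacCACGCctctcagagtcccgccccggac
Gapdh: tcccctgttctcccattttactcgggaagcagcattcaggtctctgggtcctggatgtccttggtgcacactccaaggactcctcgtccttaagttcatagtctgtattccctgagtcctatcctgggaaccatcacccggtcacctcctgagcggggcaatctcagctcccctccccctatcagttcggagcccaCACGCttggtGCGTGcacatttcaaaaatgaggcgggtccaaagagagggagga
Slc16a3: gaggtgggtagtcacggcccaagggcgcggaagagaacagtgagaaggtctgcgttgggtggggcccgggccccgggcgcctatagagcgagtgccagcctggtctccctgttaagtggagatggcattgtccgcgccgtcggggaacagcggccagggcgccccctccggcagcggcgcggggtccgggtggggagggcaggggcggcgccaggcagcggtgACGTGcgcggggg
Bnip3: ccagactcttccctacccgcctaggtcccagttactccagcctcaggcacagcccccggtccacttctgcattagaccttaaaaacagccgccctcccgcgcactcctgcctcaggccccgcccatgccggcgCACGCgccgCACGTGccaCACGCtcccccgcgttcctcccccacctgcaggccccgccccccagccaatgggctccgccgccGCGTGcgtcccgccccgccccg
P4ha1: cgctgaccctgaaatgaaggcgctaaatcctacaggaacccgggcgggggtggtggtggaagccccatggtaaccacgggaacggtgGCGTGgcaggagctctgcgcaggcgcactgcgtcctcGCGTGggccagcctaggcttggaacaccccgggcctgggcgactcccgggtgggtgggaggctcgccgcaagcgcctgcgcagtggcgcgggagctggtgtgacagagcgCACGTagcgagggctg
In these stretches the letters began 61 bases before the start of Slc2a1, 54 and 44 before Gapdh and 27 before Slc16a3. Bnip3 held 5 matches, beginning 117, 108, 107, 99 and 35 bases before its start, and P4ha1 held 3, beginning 163, 126 and 16 bases before. The Bnip3 matches at 108 and 107 are the same CACGTG read on each strand.

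The first comparison asked what the knockout does to these transcripts in germinal center B cells. There, transcripts of the glucose transporters were higher in KO, as were those of enzymes that make and remove an activator of phosphofructokinase. Transcripts of most enzymes from aldolase to lactate dehydrogenase were lower. Of 34 members tested, 9 were higher and 13 lower in KO at an adjusted p under 0.05, and 12 did not pass. Over all 13350 genes tested, 25.1% were higher and 25.1% lower, so the share of members that were higher (26.5%) lay near the background and the share that were lower (38.2%) above it. The members' median log2 fold change was -0.16, against -0.00443 over all genes tested. Of the 9 higher members, 5 exceeded 2-fold, and none of the 13 lower ones did. Among these 5, Hk3 and Pdk2 passed the low-count filter through the KO libraries alone. Over all genes tested, 972 of 3346 higher calls exceeded 2-fold, against 227 of 3352 lower ones. Eno2, Ldhb, Egln3 and Vegfa had too few counts in germinal center B cells to be tested there.

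**Figure D1:**
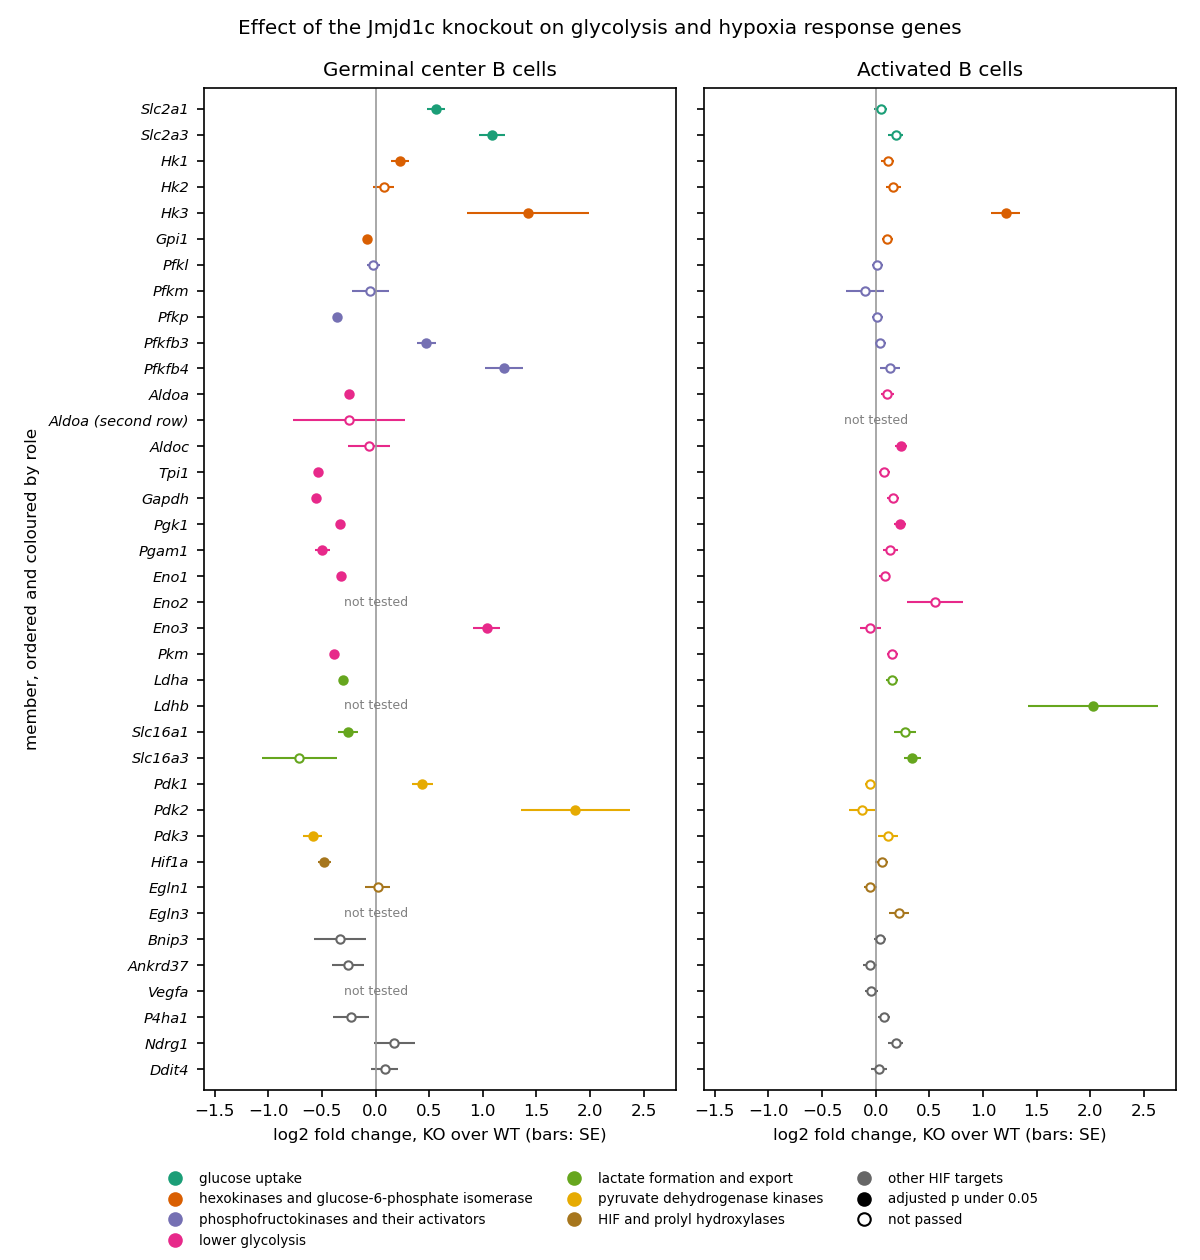
Log2 fold changes of KO over WT with their SE for every member, in germinal center B cells (left) and activated B cells (right), ordered and coloured by role; filled points passed an adjusted p under 0.05. In germinal center B cells Slc2a1, Slc2a3, Pfkfb3 and Pfkfb4 lie right of 0 while Aldoa, Tpi1, Gapdh, Pgk1, Pgam1, Eno1, Pkm and Ldha lie left of it; in activated B cells 5 members passed, all right of 0.

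Both glucose transporters rose. Slc2a3, the high-affinity transporter GLUT3 (chromosome 6, 122727809 to 122801640, minus strand), was at 29.5 and 28.7 CPM in KO against 14.1 and 13.5 CPM in WT libraries, a log2 fold change of 1.08 (SE 0.12, adjusted p = 5.16e-18). Slc2a1, the basal transporter GLUT1 (chromosome 4, 119108711 to 119137983, plus strand), was at 50.3 and 52.4 CPM in KO against 36.4 and 33.3 CPM in WT libraries, a log2 fold change of 0.57 (SE 0.08, adjusted p = 1.20e-10). Neither gene's groups overlapped. Markers of other cells were higher in the same KO libraries. Of 6 erythroid markers tested 6 passed, and all 8 summed to 62.6 to 76.5 CPM in KO against 7.55 to 9.76 CPM in WT. Of 5 plasma cell markers 4 passed, Irf4 (log2 fold change 1.365), Prdm1 (1.69), Sdc1 (2.10) and Xbp1 (0.40), and the sums were 830.8 to 834.6 CPM in KO against 686.0 to 704.9 CPM in WT. Of 9 T and NK cell markers 7 were not tested, and the 2 tested, Cd4 and Trac, passed. All 9 summed to 8.77 to 10.2 CPM in KO against 0.944 to 1.55 CPM in WT. At these WT levels Cd4 and Trac could hardly have been called lower. The part of such cells in the values of the transporters and of the other members higher in KO was not tested. Per kilobase of exon, Slc2a3 made up 22.1% and 20.9% of the transporter pair in KO libraries, against 15.7% and 16.4% in WT libraries.

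Calls among the hexokinases, which trap glucose inside the cell, were small or rested on few counts. Hk1, the widely expressed form, was at 48.7 and 42.7 CPM in KO against 42.8 and 35.7 CPM in WT libraries. Its groups overlapped slightly, and it passed with a log2 fold change of 0.23 (SE 0.08, adjusted p = 0.0153). Hk3, a form abundant in myeloid cells, was at 1.34 and 1.31 CPM in KO against 0.42 and 0.55 CPM in WT libraries, which is 22 counts in KO and 10 in WT (log2 fold change 1.42, SE 0.57, adjusted p = 0.0268). It passed the low-count filter through the KO libraries alone, so it could hardly have been called lower. Monocyte and macrophage markers were also higher there, with 7 of 8 tested passing and all 10 summing to 121.2 to 139.5 CPM in KO against 44.4 to 44.8 CPM in WT. Neutrophil markers summed to 1.90 to 1.95 CPM in KO and 0 to 0.365 CPM in WT, with Mpo, Elane and Retnlg at 0 in all 4 libraries. Whether such cells gave part of the Hk3 counts was not tested, and in bulk RNA fewer cells of a type cannot be told apart from less RNA per cell. Hk2 was at 27.0 and 32.0 CPM in KO against 27.3 and 28.9 CPM in WT libraries and did not pass. Gpi1, the isomerase of the following step, was at 426.4 and 457.2 CPM in KO against 479.4 and 460.2 CPM in WT libraries (log2 fold change -0.08, SE 0.03, adjusted p = 0.0320), with 11.5% of its exon length under a gene on the opposite strand. Hk3 lost its call without any 1 of the 4 libraries (adjusted p from 0.119 to 0.192). Hk1 lost it without KO replicate 1 (0.305) or WT replicate 2 (0.517), and Gpi1 without KO replicate 1 (0.651) or WT replicate 1 (0.241). By DESeq2 none of the 3 passed (adjusted p = 0.2195 for Hk1, 0.218 for Hk3 and 0.239 for Gpi1). Hk3 also lost its call without the low-count filter (0.0515), and Gpi1 without mitochondrial and immunoglobulin genes (0.0534) and in 1 fit over all 8 libraries (0.1346).

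At the phosphofructokinase step transcripts of Pfkfb3 and Pfkfb4 went the opposite way to those of an enzyme subunit. Pfkfb4 and Pfkfb3 make and remove fructose 2,6-bisphosphate, the strongest activator of phosphofructokinase. Pfkfb4 (chromosome 9, 108991778 to 109032228, plus strand) was at 15.9 and 12.5 CPM in KO against 6.29 and 6.11 CPM in WT libraries, a log2 fold change of 1.20 (SE 0.17, adjusted p = 4.77e-11). Pfkfb3 was at 44.3 and 47.1 CPM in KO against 33.0 and 33.1 CPM in WT libraries (log2 fold change 0.47, SE 0.09, adjusted p = 3.74e-07). Each KO library lay above each WT library for both genes. Pfkp, the platelet-type subunit of the enzyme, was at 174.0 and 183.7 CPM in KO against 227.8 and 231.1 CPM in WT libraries, again without overlap (log2 fold change -0.36, SE 0.04, adjusted p = 3.40e-16). The subunits Pfkl and Pfkm did not pass, at log2 fold changes of -0.02 and -0.05.

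Most of lower glycolysis fell. Among its 10 tested entries 7 were lower and 1 was higher, with 2 not passing and a median log2 fold change of -0.33. Gapdh (chromosome 6, 125161715 to 125166467, minus strand), the glyceraldehyde 3-phosphate dehydrogenase, was at 1106 and 1162 CPM in KO against 1669 and 1674 CPM in WT libraries, a log2 fold change of -0.56 (SE 0.03, adjusted p = 7.00e-75). Tpi1, the triosephosphate isomerase, was at 212.4 and 214.5 CPM in KO against 310.2 and 310.3 CPM in WT libraries (log2 fold change -0.54, SE 0.04, adjusted p = 2.62e-40). Pkm, pyruvate kinase, was at 495.5 and 492.1 CPM in KO against 650.4 and 642.8 CPM in WT libraries (log2 fold change -0.39, SE 0.03, adjusted p = 3.18e-29). In all 3 the genotypes stood well apart and the replicates lay close together. Pgam1, Pgk1, Eno1 and Aldoa were lower as well, at log2 fold changes of -0.50, -0.33, -0.32 and -0.25, while Aldoc and the second Aldoa identifier did not pass. Eno3, the muscle-type enolase, went the other way; it is singled out after its values were seen. It was at 28.7 and 24.5 CPM in KO against 11.2 and 14.6 CPM in WT libraries (log2 fold change 1.04, SE 0.13, adjusted p = 1.76e-15), so per kilobase it took 21.3% and 18.5% of the enolases in KO against 7.61% and 9.94% in WT libraries. Gapdh has 107 near-identical copies elsewhere in the annotated transcripts, whose counts came to between 0.503% and 2.47% of its own in every library. Markers of dividing cells moved in the same direction as these enzymes, with 6 of 6 lower and sums of 3699 to 3758 CPM in KO against 4805 to 4940 CPM in WT, as did all 8 germinal center markers; their part in the result was not tested.

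**Figure D2:**
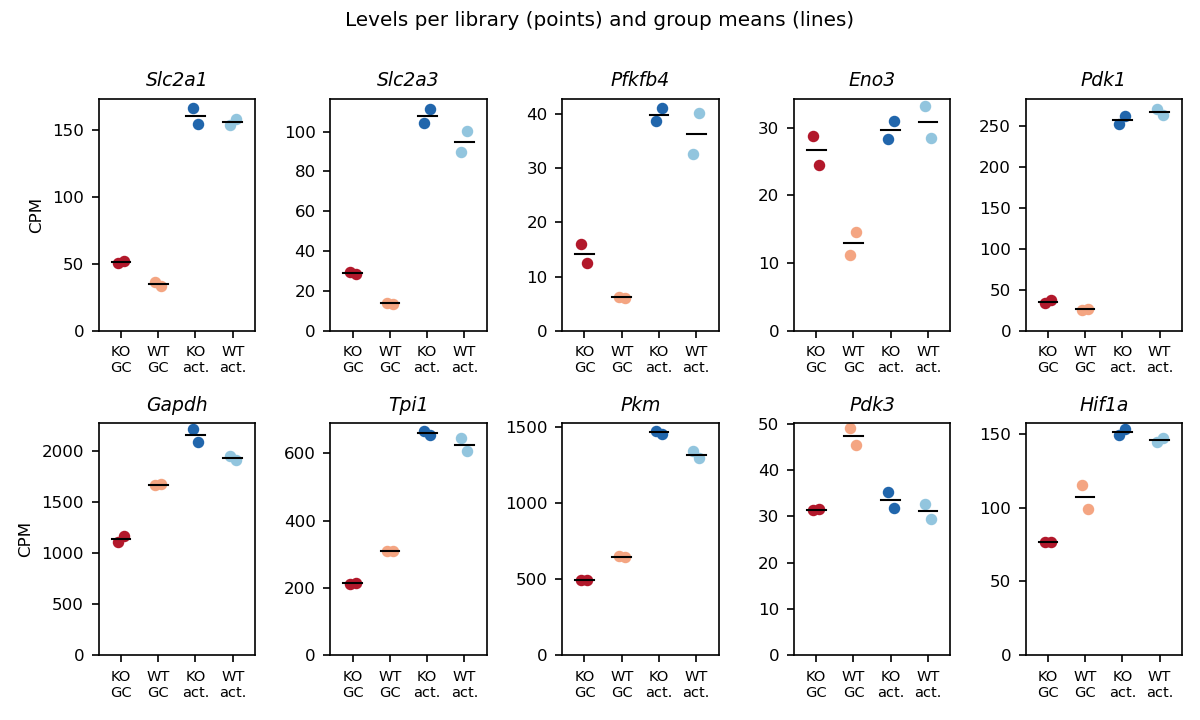
CPM of 10 members in each library, with group means as lines; GC stands for germinal center and act. for activated B cells. In the upper row the KO germinal center libraries lie above the WT ones (Slc2a3 at 29.5 and 28.7 against 14.1 and 13.5 CPM), and in the lower row below them (Gapdh at 1106 and 1162 against 1669 and 1674 CPM).

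Transcripts for lactate formation and export were lower or did not pass. Ldha, the main lactate dehydrogenase of lymphocytes, was at 419.7 and 416.5 CPM in KO against 511.9 and 525.1 CPM in WT libraries (log2 fold change -0.31, SE 0.03, adjusted p = 7.36e-18). Slc16a1, the lactate transporter MCT1, was at 34.3 and 30.3 CPM in KO against 40.9 and 36.7 CPM in WT libraries (log2 fold change -0.26, SE 0.09, adjusted p = 0.0125). The 2 groups did not overlap, yet the call was lost without KO replicate 2 (adjusted p = 0.227) or WT replicate 1 (0.182), and by DESeq2 (0.176). Slc16a3, the HIF-inducible transporter MCT4, was at 1.22 and 2.5 CPM in KO against 3.04 and 3.10 CPM in WT libraries. It did not pass (log2 fold change -0.71, SE 0.35, adjusted p = 0.0772), but did without KO replicate 2 (-1.32, adjusted p = 0.0279).

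The pyruvate dehydrogenase kinases, which inhibit pyruvate dehydrogenase by phosphorylation, changed in different directions. Pdk1, the kinase best known as a HIF target, was at 34.1 and 37.02 CPM in KO against 25.5 and 27.1 CPM in WT libraries (log2 fold change 0.44, SE 0.10, adjusted p = 3.55e-05). Pdk3, the most abundant of the 3 per kilobase in germinal center B cells, was at 31.3 and 31.5 CPM in KO against 49.2 and 45.5 CPM in WT libraries (log2 fold change -0.59, SE 0.09, adjusted p = 2.40e-10). Per kilobase, Pdk1 therefore took 25.2% and 27.2% of the 3 kinases in KO against 14.4% and 16.3% in WT libraries, and Pdk3 took 70.2% and 70.3% in KO against 84.4% and 83.3% in WT. Pdk2 was scarce, with 33 counts in KO and 11 in WT. It was at 2.56 and 1.43 CPM in KO against 0.84 and 0.27 CPM in WT libraries (log2 fold change 1.86, SE 0.50, adjusted p = 6.87e-04). Pdk2 passed the low-count filter through the KO libraries alone, so it could hardly have been called lower. Its call was lost without KO replicate 1 (adjusted p = 0.146) or WT replicate 2 (0.115), and by DESeq2 (0.0598).

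**Figure D3:**
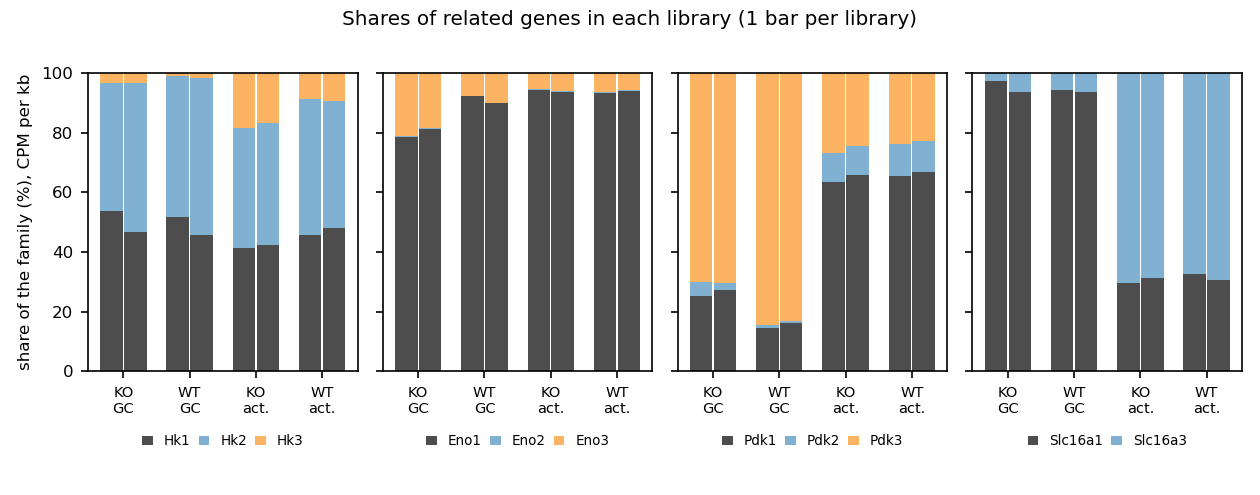
Share of each gene in its family per library, from CPM per kilobase of exon, for the hexokinases, enolases, pyruvate dehydrogenase kinases and monocarboxylate transporters; each bar is 1 library and each group has 2. Pdk1 fills 25.2% and 27.2% of its bar in KO against 14.4% and 16.3% in WT germinal center B cells, and Slc16a1 fills 93.4% to 97.1% in germinal center against 29.6% to 32.6% in activated B cells.

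The Hif1a transcript fell, and the 5 members tested as HIF targets outside metabolism did not pass. Hif1a (chromosome 12, 73901375 to 73947530, plus strand), the oxygen-regulated subunit, was at 76.7 and 76.8 CPM in KO against 115.6 and 99.4 CPM in WT libraries, a log2 fold change of -0.48 (SE 0.06, adjusted p = 5.96e-15). The KO libraries were almost equal and lay below both WT libraries. Egln1, the main prolyl hydroxylase, did not pass (log2 fold change 0.02, SE 0.11, adjusted p = 0.910). Egln3, a hydroxylase that HIF induces, had 3 counts in KO and 4 in WT over each group, a ratio of 0.925 with an exact counting interval of 0.136 to 5.47. Of 5 tested targets 0 passed by edgeR, and also 0 at an unadjusted p under 0.05 and 0 by DESeq2. The mitophagy gene Bnip3 was at 4.51 and 4.17 CPM in KO against 5.46 and 5.47 CPM in WT libraries (log2 fold change -0.33, adjusted p = 0.264). Ankrd37, an ankyrin-repeat gene, was at 10.8 and 13.8 CPM in KO against 14.2 and 15.3 CPM in WT libraries (-0.26, adjusted p = 0.143). P4ha1, a collagen prolyl hydroxylase subunit, was at 11.7 and 7.14 CPM in KO against 10.2 and 11.9 CPM in WT libraries (-0.23, adjusted p = 0.258). Single libraries mattered here: P4ha1 passed without KO replicate 1 (-0.62, adjusted p = 0.0138) and Ankrd37 without KO replicate 2 (-0.44, adjusted p = 0.0454). Ndrg1 and Ddit4, stress-induced genes, were at log2 fold changes of 0.18 and 0.08 and did not pass.

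In activated B cells few of these transcripts passed between the genotypes. Of 37 members tested, 5 were higher and 0 lower in KO, where 4.85% of all 14110 genes tested were higher and 1.42% lower. The members' median log2 fold change was 0.11, against 0.000623 over all genes. The count was sensitive to single libraries, with 1 member higher without WT replicate 1, 3 without KO replicate 1 and 7 without KO replicate 2. At an unadjusted p under 0.05, 15 were higher and 0 lower, and DESeq2 called 2 higher and 0 lower.

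Hk3 changed most securely. It was at 23.2 and 20.3 CPM in KO against 9.09 and 9.71 CPM in WT libraries, a log2 fold change of 1.21 (SE 0.14, adjusted p = 6.08e-07), and took 18.6% and 16.7% of hexokinase transcripts per kilobase in KO against 8.87% and 9.56% in WT libraries. It was the only member to pass under every alternative tried in this comparison. Markers of other cells were higher in the same libraries: 8 of 8 neutrophil markers passed and summed to 1887 to 2296 CPM in KO against 516.9 to 586.9 CPM in WT. The 10 monocyte and macrophage markers summed to 1351 to 1468 CPM in KO against 854.9 to 901.2 CPM in WT, with 5 of 8 tested passing. Erythroid markers summed to 937.1 to 1128 CPM in KO against 634.7 to 641.2 CPM in WT, with 6 of 8 passing. The part of such cells in the Hk3 value, and in the smaller values that follow, was not tested.

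The other 4 changes were smaller or rested on few counts. Slc16a3 was at 68.9 and 64.5 CPM in KO against 49.97 and 55.4 CPM in WT libraries (log2 fold change 0.34, SE 0.08, adjusted p = 4.89e-03). Pgk1, phosphoglycerate kinase, was at 909.3 and 890.3 CPM in KO against 752.3 and 788.0 CPM in WT libraries (0.23, SE 0.05, adjusted p = 8.10e-03). Aldoc, the brain-type aldolase, was at 171.1 and 173.3 CPM in KO against 142.6 and 150.7 CPM in WT libraries (0.23, SE 0.06, adjusted p = 9.93e-03). In these 3 the KO libraries lay above the WT ones by more than the spread within a group. Ldhb, the heart-type lactate dehydrogenase, had 25 counts in KO and 6 in WT (log2 fold change 2.02, SE 0.60, adjusted p = 0.0440). It passed the low-count filter through the KO libraries alone, so it could hardly have been called lower. Ldhb lost its call without any 1 library (adjusted p from 0.128 to 0.380). Slc16a3 lost it without KO replicate 1 (0.0541) or WT replicate 1 (0.0734), and Aldoc (0.0962) and Pgk1 (0.0940) without WT replicate 1. Without the low-count filter Slc16a3 (0.0582), Aldoc (0.0639) and Ldhb (0.129) did not pass, nor did they by DESeq2 (0.1096, 0.122 and 0.480). Ldhb also has an almost identical pseudogene, so its reads are uncertain.

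The remaining members did not pass. Gapdh was at 2217 and 2089 CPM in KO against 1950 and 1916 CPM in WT libraries (log2 fold change 0.16, adjusted p = 0.0871). Pkm (0.16, adjusted p = 0.0850) and Ldha (0.15, adjusted p = 0.103) were close to the threshold on the same side, and Gapdh and Ldha passed without KO replicate 2 (adjusted p = 0.0158 and 0.0432). Slc2a3 was at 104.1 and 111.5 CPM in KO against 89.6 and 100.4 CPM in WT libraries (0.18, adjusted p = 0.121) and passed without WT replicate 2 (adjusted p = 0.0298). Slc2a1 was at 166.7 and 154.9 CPM in KO against 153.9 and 158.1 CPM in WT libraries and the groups overlapped. The kinases Pdk1 and Pdk3, Hif1a and Egln1, and the targets Vegfa, Bnip3, Ankrd37, P4ha1 and Ddit4 had log2 fold changes between -0.05 and 0.12. Ndrg1 (0.19, adjusted p = 0.131) and Egln3 (0.22, adjusted p = 0.193) did not pass.

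The difference between the knockout's effects in the 2 cell types was then tested in 1 fit of all 8 libraries. For 21 of 38 members the effects differed: 7 had a higher effect in germinal center B cells and 14 a lower one. Over all 14992 genes tested, 17.5% were higher and 13.8% lower. The members' median difference was -0.25, against 0.0344 over all genes, with Ldhb, which had 0 counts in WT germinal center B cells, among them. The test shares its germinal center libraries with the first comparison and is not a separate measurement. The rises in Slc2a1, Slc2a3, Pfkfb3, Pfkfb4, Eno3, Pdk1 and Pdk2 of germinal center B cells were larger than the values in activated B cells, by 0.52, 0.90, 0.43, 1.07, 1.08, 0.49 and 1.99 on the log2 scale. The lowest p-values were in lower glycolysis: Gapdh differed by -0.71 (SE 0.06, adjusted p = 3.84e-17), Tpi1 by -0.62 (SE 0.07, adjusted p = 7.38e-13) and Pkm by -0.54 (SE 0.06, adjusted p = 1.43e-11). Hif1a differed by -0.53 (SE 0.08, adjusted p = 9.82e-08) and Pdk3 by -0.70 (SE 0.13, adjusted p = 6.07e-06). The effect on Hk3 did not differ detectably, at 0.21 (SE 0.52, adjusted p = 0.813). Of the 6 targets outside metabolism 0 passed by edgeR or DESeq2, and 0 at an unadjusted p under 0.05 (0.0601 to 0.947). The calls for Gpi1, Slc16a3 and Pdk2 were lost without KO germinal center replicate 1 (adjusted p = 0.181, 0.201 and 0.0617), Gpi1 also without WT germinal center replicate 1 (0.172) and Pdk2 without WT germinal center replicate 2 (0.0526), whereas P4ha1 passed without KO germinal center replicate 1 (-0.71, adjusted p = 5.35e-03).

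The last comparison set germinal center B cells against activated B cells within each genotype; cell type, isolation and in vitro stimulation cannot be told apart in it. Nearly every member was lower in germinal center B cells. In WT, 33 of 36 members tested were lower and 2 higher, where 41.8% of all 14426 genes tested were lower and 40.3% higher. In KO, 33 of 37 were lower and 1 higher, where 39.5% of all 14307 genes were lower and 39.2% higher. In each genotype 29 of the lower members exceeded 2-fold. Over all genes, 3502 of 6036 lower calls did so in WT and 2754 of 5655 in KO. The members' median log2 fold change was -1.87 in KO and -2.10 in WT, against -0.0172 in KO and -0.0338 in WT over all genes. All members together summed to 4283 and 4385 CPM in KO germinal center libraries, against 14230 and 13670 CPM in KO activated libraries, and to 5504 and 5456 CPM in WT germinal center libraries, against 12920 and 12880 CPM in WT activated libraries. Markers of other cells moved with this comparison: in each genotype 8 of 8 neutrophil markers were lower and 6 of 6 dividing-cell markers higher in germinal center B cells. Monocyte and macrophage markers were lower for 7 of 10 tested and higher for 2 in KO, and lower for 7 of 7 in WT. Erythroid markers were lower for 8 of 8 in KO and 7 of 7 in WT, and T and NK cell markers for 5 of 5 in each genotype. Neutrophil markers, and in WT the T and NK cell markers, were near absent from germinal center libraries and could hardly have been called higher. In activated B cells the monocyte and macrophage list summed to 854.9 to 1468 CPM, the erythroid list to 634.7 to 1128 CPM and the dividing-cell list to 281.0 to 308.2 CPM in activated B cells. Their part in the differences was not tested.

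**Figure D4:**
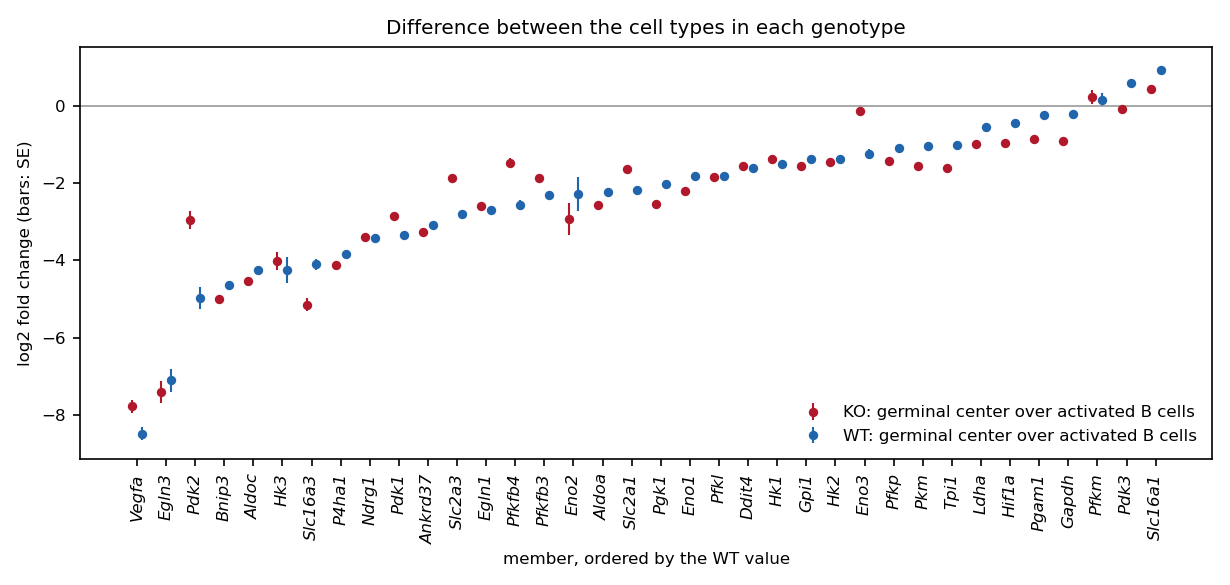
Log2 fold changes of germinal center over activated B cells with their SE, in KO (red) and WT (blue), for the members tested in each genotype, ordered by the WT value. Vegfa (-8.48 in WT) and Egln3 (-7.10 in WT) stand leftmost, and in WT only Pfkm, Pdk3 and Slc16a1 lie above 0.

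Vegfa and Egln3 differed most. Vegfa, the angiogenic growth factor (chromosome 17, 46016993 to 46032369, minus strand), was near absent from germinal center B cells, with 9 counts over the KO group and 7 over the WT group. It was at 0.37 and 0.71 CPM in KO germinal center libraries against 115.8 and 127.2 CPM in KO activated libraries. In WT it was at 0.42 and 0.27 CPM in germinal center libraries against 126.9 and 123.8 CPM in activated libraries. The log2 fold changes were -7.77 (SE 0.17, adjusted p = 1.10e-25) in KO and -8.48 (SE 0.16, adjusted p = 7.49e-112) in WT. Egln3 was at 0.24 and 0.12 CPM in KO germinal center libraries, against 31.5 and 34.2 CPM in KO activated libraries. Its 3 counts in KO germinal center B cells give a level 182-fold lower than in activated B cells, with an exact counting interval of 62.0 to 885. In WT it was at 0.31 and 0.09 CPM in germinal center libraries against 27.3 and 29.2 CPM in activated libraries (log2 fold change -7.10, SE 0.29, adjusted p = 1.06e-59). These 2 genes were near absent from the sorted cells and well expressed in the cultures, through which alone they passed the low-count filter. Eno2, with 9 counts over the KO and 12 over the WT germinal center group, also passed the filter through the cultures alone. So did Hk3 (10 counts) and Pdk2 (11 counts) in WT, and Ldhb (1 count) in KO. Like Vegfa and Egln3, these members could hardly have been called higher in germinal center B cells. All are among the lower members counted above.

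Bnip3 was at 4.51 and 4.17 CPM in KO germinal center libraries against 142.4 and 135.6 CPM in KO activated libraries, and at 5.46 and 5.47 CPM in WT germinal center libraries against 139.3 and 131.9 CPM in WT activated libraries. Its log2 fold changes were -4.99 in KO and -4.64 in WT. Genes on the opposite strand cover 22.3% of the exon length of Bnip3 and 26.4% of that of Ankrd37, so these 2 are uncertain. P4ha1 was -4.12 in KO and -3.83 in WT, Ndrg1 -3.41 in each, Ankrd37 -3.27 in KO and -3.09 in WT, and Ddit4, the mTORC1 inhibitor REDD1, -1.55 in KO and -1.62 in WT. So all 6 targets outside metabolism were lower in germinal center B cells of each genotype. Hif1a differed far less, with 76.7 and 76.8 CPM in KO germinal center libraries against 149.0 and 153.5 CPM in KO activated libraries (log2 fold change -0.97, SE 0.06, adjusted p = 2.25e-15), and 115.6 and 99.4 CPM in WT germinal center libraries against 144.5 and 147.4 CPM in WT activated libraries (-0.46, SE 0.06, adjusted p = 1.31e-13). Egln1 was -2.60 in KO and -2.69 in WT.

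**Figure D5:**
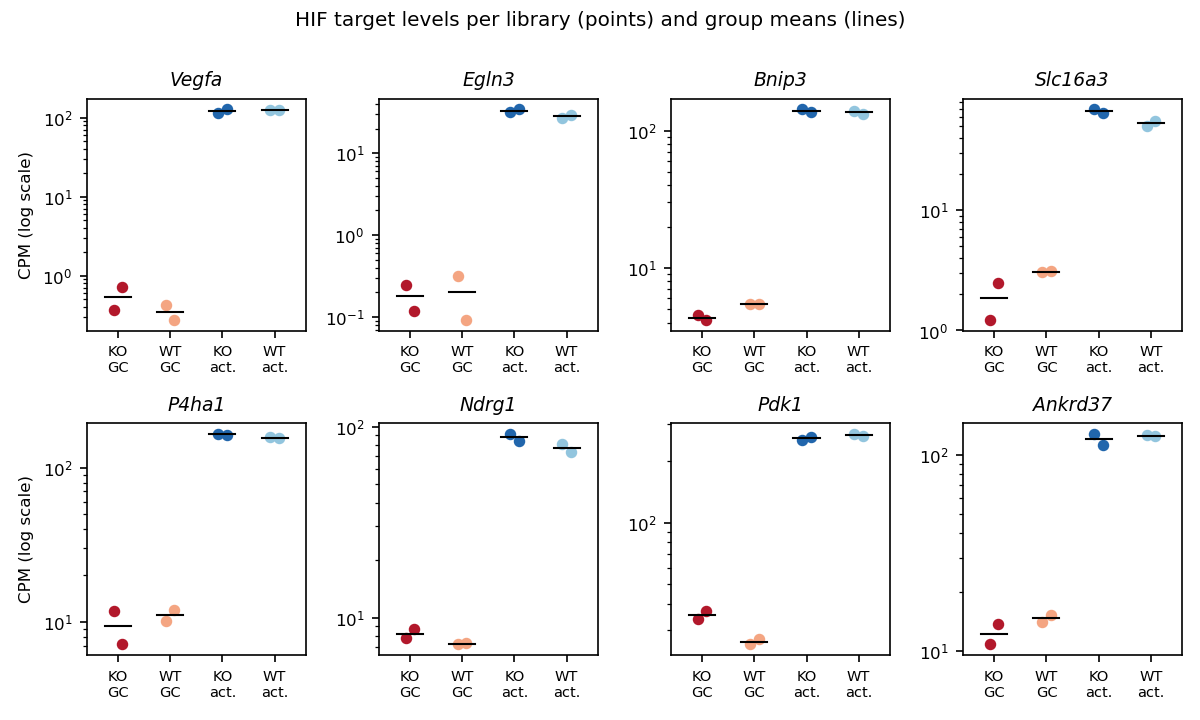
CPM on a log axis of 8 HIF targets in each library, with group means as lines; GC stands for germinal center and act. for activated B cells. For each gene all germinal center libraries lie below all activated libraries, as with Bnip3 at 4.17 to 5.47 CPM against 131.9 to 142.4 CPM.

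Glucose uptake and the upper steps were lower too. Slc2a1 was -1.64 in KO and -2.18 in WT, Slc2a3 -1.88 in KO and -2.80 in WT, Pfkfb4 -1.48 in KO and -2.57 in WT, and Pfkfb3 -1.87 in KO and -2.31 in WT on the log2 scale. These 4 members, higher in KO germinal center B cells, thus stood nearer to the activated level in KO than in WT. That follows from the first comparison, which shares these germinal center libraries, and is not a separate measurement. The hexokinases Hk1 and Hk2 lay between -1.38 and -1.51 in the 2 genotypes, and Hk3 at -4.02 in KO and -4.25 in WT. Pfkm, the muscle-type subunit, did not pass in either genotype.

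The enzymes of lower glycolysis differed unequally. Gapdh was at 1106 and 1162 CPM in KO germinal center libraries against 2217 and 2089 CPM in KO activated libraries (log2 fold change -0.92, SE 0.04), and at 1669 and 1674 CPM in WT germinal center libraries against 1950 and 1916 CPM in WT activated libraries (-0.22, SE 0.05, adjusted p = 9.87e-06). Pgam1 was close to it at -0.87 in KO and -0.25 in WT, whereas Aldoa (-2.57 in KO, -2.23 in WT), Pgk1 (-2.56 in KO, -2.02 in WT), Eno1 (-2.21 in KO, -1.82 in WT) and Aldoc (-4.53 in KO, -4.25 in WT) differed by much more. The most abundant member per kilobase of annotated exon therefore changed with the cell type, but this order depends on that length. In mean CPM Gapdh also led in activated B cells. It was at 2153 against 1877 for Aldoa in KO, and at 1933 against 1744 in WT. In germinal center B cells Gapdh led with 274.4 ± 9.53 CPM per kilobase in KO and 404.3 ± 0.85 in WT, followed by Ldha with 126.3 ± 0.68 in KO and 156.6 ± 2.82 in WT (SD, n = 2 each). In activated B cells Aldoa led with 644.8 ± 50.03 CPM per kilobase in KO and 599.2 ± 7.38 in WT, followed by Gapdh with 520.9 ± 21.9 in KO and 467.6 ± 5.86 in WT (SD, n = 2 each). Eno3 did not pass in KO (log2 fold change -0.15, adjusted p = 0.20) but was -1.25 in WT.

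Lactate export and the kinases changed partners between the cell types. Slc16a1 was higher in germinal center B cells, at 34.3 and 30.3 CPM in KO against 24.2 and 24.5 CPM in KO activated libraries (log2 fold change 0.42, SE 0.10, adjusted p = 6.77e-04), and at 40.9 and 36.7 CPM in WT against 20.1 and 20.2 CPM in WT activated libraries (0.93, SE 0.10, adjusted p = 5.97e-17). Slc16a3 was at -5.14 in KO and -4.11 in WT. Per kilobase, Slc16a1 made up 97.1% and 93.6% of the 2 transporters in KO germinal center libraries, against 29.6% and 31.4% in KO activated libraries. In WT it made up 94.2% and 93.4% in germinal center libraries, against 32.6% and 30.5% in activated libraries. Pdk1 was -2.84 in KO and -3.35 in WT, and Pdk2 -2.97 in KO and -4.98 in WT. Pdk3 was higher in WT germinal center B cells (0.60, SE 0.09, adjusted p = 2.00e-10) and did not pass in KO (-0.09, SE 0.10, adjusted p = 0.402). Pdk1 accordingly held 63.4% and 65.8% of the kinases per kilobase in KO activated libraries and 65.4% and 66.9% in WT activated libraries. Ldha was at -0.999 in KO and -0.56 in WT. Ldhb had 1 count in KO germinal center B cells, which is 21.1-fold lower than in KO activated B cells with an exact counting interval of 3.46 to 867. In WT it had 0 counts in germinal center B cells against 6 in activated B cells, and was not tested. With a floor of 3 counts assumed for the germinal center group it would be 2.07-fold lower. That value leaves out the counting error of the 6 and is no firm bound.

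Other genes of these pathways, listed by function, were compared in the same fits. In KO against WT germinal center B cells, 8 of 11 HIF pathway regulators tested were lower and 0 higher, also at an unadjusted p under 0.05 (edgeR), with a median of -0.27. The shares over all genes, 25.1% higher and 25.1% lower, are the background for this and the following counts, and several lists lay near them. Those with the lowest p were partners of the ubiquitin ligase that recognises hydroxylated HIF: Cul2 (log2 fold change -0.43, adjusted p = 1.26e-09), Eloc (-0.41, adjusted p = 2.82e-07), Rbx1 (-0.28, adjusted p = 3.52e-05) and Elob (-0.28, adjusted p = 3.70e-05). Of 7 genes of the pentose phosphate pathway, which branches from glucose 6-phosphate, 5 were lower and 1 higher, led by the transketolase Tkt (-0.41, adjusted p = 4.90e-26). Among 20 further HIF targets tested, 7 were higher and 4 lower, and Bhlhe40, a transcriptional repressor, was at 33.4 and 39.2 CPM in KO against 10.7 and 11.03 CPM in WT (1.74, SE 0.12, adjusted p = 2.32e-45). Hmox1, heme oxygenase, was higher too (1.25, adjusted p = 7.34e-07), while Tfrc, the transferrin receptor (-0.38, adjusted p = 8.02e-12), and Ccng2, a cyclin (-0.32, adjusted p = 7.10e-07), were lower. Of 13 upstream regulators, 4 were higher and 4 lower: Myc, which drives glycolytic genes, was at 124.7 and 117.6 CPM in KO against 66.6 and 72.2 CPM in WT (0.80, SE 0.06, adjusted p = 1.66e-41). Txnip, which restrains glucose uptake, was higher (0.46, adjusted p = 3.56e-27), and Akt1 (-0.53, adjusted p = 3.81e-45) and Trp53 (-0.31, adjusted p = 4.32e-10) were lower. Of 13 other glycolysis genes 3 were higher and 1 lower, and of 10 genes for pyruvate entry into mitochondria 2 were lower and 0 higher (at an unadjusted p under 0.05, 3 and 0 by edgeR).

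In activated B cells, 4 of 7 pentose phosphate genes were higher in KO and 0 lower (5 and 0 at an unadjusted p under 0.05, edgeR), namely Tkt (log2 fold change 0.39, adjusted p = 2.56e-05), G6pdx (0.43, adjusted p = 3.68e-04), Taldo1 (0.23, adjusted p = 0.0221) and Pgd (0.25, adjusted p = 0.0140). The effect on Tkt thus had opposite signs in the cell types, differing by -0.80 (SE 0.07, adjusted p = 4.04e-18). Over all genes 4.85% were higher and 1.42% lower. Of 26 further HIF targets 3 were higher and 0 lower by edgeR, and 6 and 1 at an unadjusted p under 0.05. Of 13 HIF pathway regulators and 14 upstream regulators 0 passed by edgeR, where 1 and 2 had an unadjusted p under 0.05. Between the cell types in WT, 2 of 23 further HIF targets tested were higher in germinal center B cells and 20 lower, among them the mitophagy gene Bnip3l (-3.66, adjusted p = 3.90e-125), Ero1l (-3.53, adjusted p = 4.21e-110), Mxi1 (-4.39, adjusted p = 4.76e-94) and the histone demethylase Kdm3a (-2.09, adjusted p = 1.22e-91). Of 12 tested regulators of HIF 7 were higher and 4 lower, against 40.3% and 41.8% of all genes. The hydroxylase Egln2 (1.74, adjusted p = 7.27e-78) and the ubiquitin ligase Siah2 (2.21, adjusted p = 1.47e-63) were higher, as was Rbx1 (1.46, adjusted p = 9.12e-45), and Arnt, the partner subunit of HIF (-1.17, adjusted p = 7.08e-43), was lower.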

How the data were processed

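RNA-seq of 8 libraries was deposited as raw read counts per gene, made by the authors; Trimmomatic, DESeq2 and build mm10 are named in the submitters' processing notes. The aligner, counter, strand setting and versions are not given in the sources used. Sample titles gave groups and replicate numbers. Counts were tested with edgeR 4.0.16 in R 4.3.3 (TMM scaling, filterByExpr, quasi-likelihood F test, two-sided, Benjamini-Hochberg over all genes tested, threshold 0.05), 4 libraries per comparison and 8 for the difference of KO effects. The procedure was first tried on simulated counts with the same spread for every gene. Changes were placed only in well-counted genes there, so calls on low-count members were not covered. CPM values use 1 TMM scaling over all 8 libraries, whereas each fold change comes from its own fit. Members were matched by symbol; coordinates and exon lengths came from GENCODE M21 (GRCm38), in which 55141 of 55401 identifiers were found. The 5 entries that name no gene (56.7% to 59.5% of all entries per library) stayed out. Intervals for low counts are exact, at 95%, and cover counting error only. Full values are given for up to 3 members per role with the lowest p, and list genes for up to 4 per list. Members, lists and roles were chosen with earlier results of these data known. DESeq2 1.42.0, other scalings, no low-count filter, leaving out each library, a replicate block and 1 fit of all libraries were alternatives. Same-numbered libraries did not deviate together, so numbers were not used as pairs. For genes over 10% of whose exon length lies under another gene (Gpi1, Bnip3 and Ankrd37 on the opposite strand, Pkm and Pfkm on the same) and the 11 members with near-identical copies, reads may be split or shared.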

Additional observations from a re-analysis of the deposited data

Results flagged for a closer look

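For 21 members the effect of the knockout differed between germinal center and activated B cells, by a test of the difference itself (edgeR, 8 libraries in 1 fit, adjusted p under 0.05). Values are germinal center minus activated effects on the log2 scale. Among the transporters these were Slc2a1 at 0.52 and Slc2a3 at 0.90. In the upper steps Gpi1 was at -0.20, Pfkp at -0.37, Pfkfb3 at 0.43 and Pfkfb4 at 1.07. In lower glycolysis Aldoa was at -0.36, Tpi1 at -0.62, Gapdh at -0.71, Pgk1 at -0.56, Pgam1 at -0.63, Eno1 at -0.41, Eno3 at 1.08 and Pkm at -0.54. For lactate Ldha was at -0.46, Slc16a1 at -0.53 and Slc16a3 at -1.06. The kinases Pdk1, Pdk2 and Pdk3 were at 0.49, 1.99 and -0.70, and Hif1a was at -0.53. The SE ran from 0.06 for Gapdh to 0.50 for Pdk2.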

How the results depend on the processing

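Over the 2040 refits of single members, 1983 kept their side of the threshold, 39 lost a call, 18 gained one and 0 reversed. Direction was compared only where a member passed in the main fit or the refit. Members that passed in neither could change sign, as Pfkm did in activated B cells (log2 fold changes from -0.29 to 0.11). In germinal center B cells 6 to 8 members were higher and 11 to 14 lower in KO when each library was left out; for all genes these counts were 2893 to 2963 and 2744 to 2970, and DESeq2 called 2065 genes lower against 3352. In activated B cells 2 members were higher in KO without the low-count filter, 2 with DESeq2, 10 with the replicate block and 8 in 1 fit over all 8 libraries, against 5, and 1 to 7 when each library was left out. There, all genes called higher numbered 397 without the filter, 291 with DESeq2 (684 in the report's fit) and 493 to 676 with 1 library out; those lower numbered 68, 58, 435 with the replicate block and 408 in the fit of all libraries, against 201, and 108 to 275 with 1 library out. For the difference of effects DESeq2 called 1678 genes higher, against 2621; 6 to 7 members were higher and 13 to 14 lower with 1 library out, and all genes 2207 to 2482 and 1508 to 2022. Between the cell types, with 1 library out, 32 to 33 members were lower and 1 higher in KO, and 33 lower and 2 to 3 higher in WT. Same-numbered libraries correlated in their deviations at only -0.0146 to 0.00992, so the block shares a number and no known source. Under upper-quartile scaling the median of all genes shifted by -0.151 in KO and -0.146 in WT between the cell types, and Eno3 (-0.30) and Pdk3 (-0.24) then passed in KO. The cause of these changes was not tested. With 1 library left in a group, its spread was assumed to be that of the other groups. With 2 libraries per group and few counts for Hk3, Pdk2, Ldhb, Egln3 and Vegfa in germinal center B cells, small changes there were not detectable at this depth.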
